A study of Mus musculus with 8 samples.

Results

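Transcripts of 10 claudin and epithelial junction genes were followed through mixed co-cultures of mouse splenocytes and colon cancer cells. The genes were taken by symbol: Epcam, Cldn2, Cldn3, Cldn4, Cldn7, Ocln, Tjp1, F11r, Jup and Dsp. Each of the 10 was found once among 52636 gene IDs, and all 10 were among the 11433 genes that reached 1 TPM (a transcript level scaled to gene length and library total) in 4 or more libraries. The cancer cells were organoids with a red tdTomato reporter, placed in the spleen and recovered from liver metastases. They were sorted by their tdTomato and by CD4, a T cell surface protein, into trogocytic and non-trogocytic cells, trogocytosis being the uptake of membrane pieces from another cell. Each sorted fraction was kept for 5 days with C57BL/6 splenocytes of Actin-GFP reporter mice, at 1 cancer cell to 50 splenocytes. The organoid genotype, the ages and the number of animals or organoid lines are not given in the labels. There were 4 libraries with non-trogocytic cells, which served as the control, and 4 with trogocytic cells. Whether replicates came from separate animals is not stated, and the spread that p-values here rest on is that among these libraries, possibly technical.

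Epithelial cells hold together through stacked junctions. At the tight junction, claudins and occludin span the membrane and join across the gap between cells, and scaffold proteins such as ZO-1 tie them to actin. Some claudins seal the gap, whereas claudin-2 forms a pore for cations and water. Below lie adherens junctions and desmosomes, where plakoglobin and desmoplakin link cadherins to the cytoskeleton. EpCAM is an adhesion molecule of epithelial cells that binds claudin-7 and protects it from degradation. Loss of these proteins accompanies epithelial-mesenchymal transition, in which Snail, Slug and ZEB proteins bind E-boxes of the sequence CAGGTG in epithelial promoters.

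The promoters of the 4 members with the highest mean TPM are shown, and no link between their sequence and the levels was tested. The 4th, Cldn4, exceeded the next, Ocln, in 3 of 8 libraries. Each sequence is the 250 bases before an annotated start, from RefSeq on GRCm38.p6, 5′ to 3′ on the gene's strand, with every CAGGTG on either strand in capitals (on the minus strand it reads as its reverse complement). The windows lie at chr17:87635729-87635978, plus strand (Epcam), chr11:69964529-69964778, plus strand and chr11:69965171-69965420, plus strand (the 2 starts of Cldn7), chr5:134985964-134986213, plus strand (Cldn3) and chr5:134946935-134947184, minus strand (Cldn4).
Epcam: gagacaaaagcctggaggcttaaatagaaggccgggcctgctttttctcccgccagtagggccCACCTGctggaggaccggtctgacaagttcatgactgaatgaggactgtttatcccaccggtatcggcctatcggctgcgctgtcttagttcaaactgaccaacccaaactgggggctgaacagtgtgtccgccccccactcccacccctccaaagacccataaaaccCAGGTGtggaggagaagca
Cldn7, upstream start: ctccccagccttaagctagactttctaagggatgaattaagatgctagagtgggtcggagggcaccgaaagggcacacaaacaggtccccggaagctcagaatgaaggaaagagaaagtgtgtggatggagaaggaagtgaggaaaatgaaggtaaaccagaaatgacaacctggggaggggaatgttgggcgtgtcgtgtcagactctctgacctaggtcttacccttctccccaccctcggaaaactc
Cldn7, downstream start: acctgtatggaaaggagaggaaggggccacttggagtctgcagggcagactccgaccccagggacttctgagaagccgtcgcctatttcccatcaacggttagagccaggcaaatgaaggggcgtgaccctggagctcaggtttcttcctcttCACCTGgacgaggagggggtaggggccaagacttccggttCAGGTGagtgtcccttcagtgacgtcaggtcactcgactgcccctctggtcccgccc
Cldn3: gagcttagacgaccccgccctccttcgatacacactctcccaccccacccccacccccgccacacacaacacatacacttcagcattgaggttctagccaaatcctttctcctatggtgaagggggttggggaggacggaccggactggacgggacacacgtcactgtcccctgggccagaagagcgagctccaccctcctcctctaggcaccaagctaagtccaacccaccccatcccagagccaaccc
Cldn4: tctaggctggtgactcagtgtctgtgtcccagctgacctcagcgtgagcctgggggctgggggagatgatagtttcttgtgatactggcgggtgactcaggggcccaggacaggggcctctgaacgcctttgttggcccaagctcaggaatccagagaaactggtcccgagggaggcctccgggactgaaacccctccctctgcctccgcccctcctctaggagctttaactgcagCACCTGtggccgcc
Epcam held the motif 187 and 19 bases before its start, Cldn4 held it 14 bases before, and the downstream start of Cldn7 had it at 97 and 57 bases. The upstream Cldn7 window and the Cldn3 window held none. Of the 10 members, 5 had the motif in at least 1 of their windows, the others being F11r and Ocln, against 19.4% of all 27025 symbols in the table and 17.2% of all 32851 windows. A match describes the letters only.

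Aligned bases came to 1.39 to 1.84 Gb per library, and 10867 to 12362 genes reached 1 TPM. Since each library holds all cells of its co-culture, fewer cells of a type and less RNA per cell cannot be told apart. Of 10 colon epithelium markers, 8 reached the filter and Cdx1 was listed at 0 in every library. Cdx2 and Muc13 reached at most 5.88 and 2.93 TPM. The summed level of these markers ran from 3110 to 8751 TPM in non-trogocytic and from 5092 to 6838 TPM in trogocytic libraries, with Krt18 the largest part. The sum of 8 leukocyte markers ran from 3055 to 14461 and from 2008 to 6612 TPM. Lyz2 was its largest part (2636 to 12057 and 1175 to 3845.5 TPM), whereas Ptprc ran from 55.8 to 345 and from 98.4 to 253 TPM. All 5 hepatocyte markers were listed at 0 in every library except non-trogocytic replicate 3, where they summed to 143 TPM (Alb 36.5 TPM, Apoa1 56.0 TPM). Of 6 endothelial markers, 4 were at 0 throughout and the sum reached at most 8.15 TPM, and the sum of 4 fibroblast markers reached 32.4 TPM in non-trogocytic replicate 3 and 0.185 TPM in the trogocytic group. Platelet markers Pf4 and Ppbp were present in every library (summed platelet markers 60.3 to 179 TPM), with Itga2b and Gp9 at 0 throughout. The sum of 4 erythroid markers ran from 3.98 to 89.2 TPM.

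The members spanned a wide range of abundance, with Epcam far above the rest. In order of mean TPM over the 8 libraries they stood at 359 (Epcam), 131 (Cldn7), 59.97 (Cldn3), 43.4 (Cldn4), 33.6 (Ocln), 31.0 (Cldn2), 22.9 (F11r), 9.87 (Jup), 8.23 (Tjp1) and 7.72 (Dsp). TPM is scaled per transcript length. The order depends in part on the deposited column: by mean coverage over the gene, F11r (15.5) was above Cldn2 (7.56), and Jup (3.23) was the lowest, below Tjp1 (5.08) and Dsp (4.89). Epcam exceeded Cldn7, and Cldn7 exceeded Cldn3, in 8 of 8 libraries. Cldn3 exceeded Cldn4, and F11r exceeded Jup, in 7 of 8. The remaining neighbours did not differ beyond their spread: Cldn4 and Ocln, Ocln and Cldn2, Cldn2 and F11r, Jup and Tjp1, and Tjp1 and Dsp each differed on the log2 scale by less than 1 SD of that difference over the libraries.

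**Figure D1:**
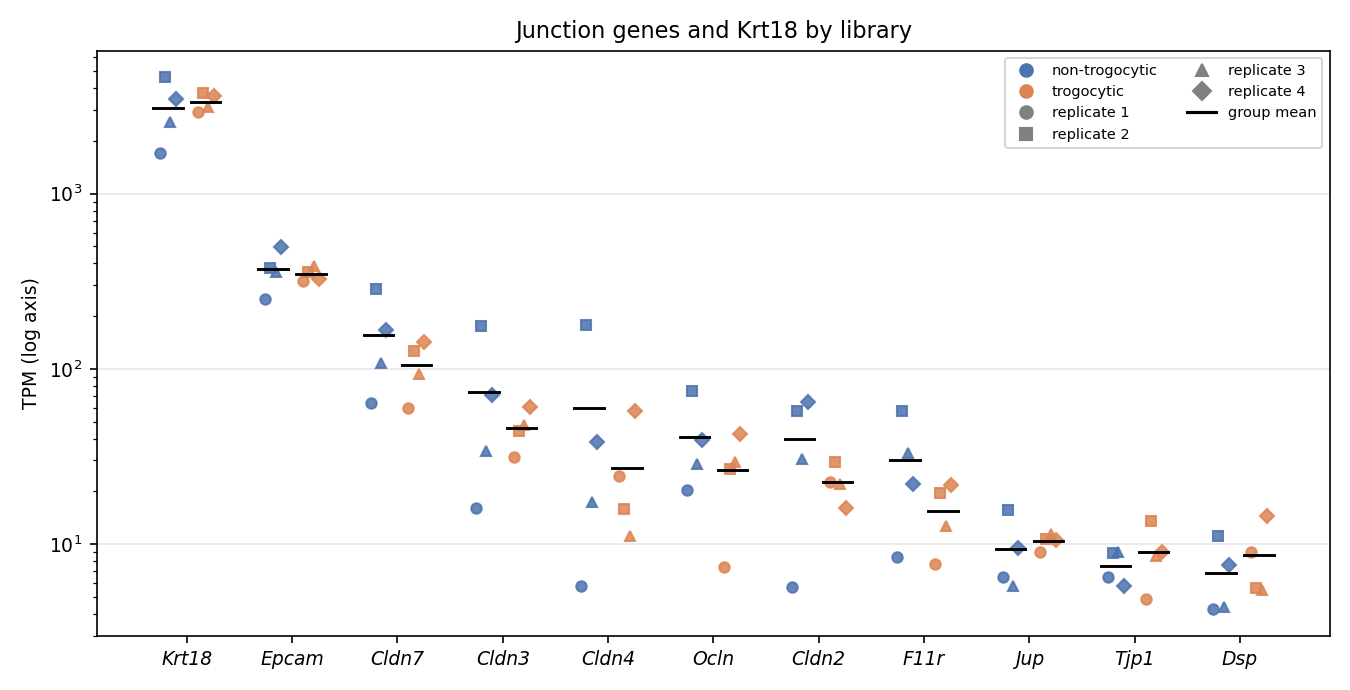
TPM on a log axis for Krt18 and the 10 members (x axis) in each library, with blue points for 4 non-trogocytic and orange points for 4 trogocytic libraries, a marker shape per replicate number and a black line at each group mean. Epcam lies between 249 and 496 TPM, whereas Cldn4 spreads from 5.77 to 178 TPM within the non-trogocytic group alone.

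Epcam (ENSMUSG00000045394.8, chr17:87635979-87651106) had the smallest spread of TPM over the libraries, its highest value being 1.99 times its lowest. It stood at 249, 378, 358 and 496 TPM in non-trogocytic replicates 1 to 4 and at 319, 356, 389 and 327 TPM in trogocytic replicates 1 to 4. The trogocytic values all lay within the range of the control values. Its group means were 370.3 ± 101 and 347.5 ± 31.8 TPM (SD, n = 4 each), and the log2 fold change was −0.05 with a 95% interval from −0.52 to 0.41 (limma adjusted p = 0.9998). On a linear scale that interval runs from 0.699-fold to 1.33-fold. The sign was positive (0.10) without non-trogocytic replicate 4.

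Claudins 3, 4 and 7, usually counted among the sealing claudins, varied far more between libraries of 1 group than between the groups. Cldn4 (ENSMUSG00000047501.3, chr5:134945119-134946934) stood at 5.77, 178, 17.3 and 38.0 TPM in non-trogocytic and at 24.5, 15.8, 11.1 and 57.1 TPM in trogocytic libraries. The highest non-trogocytic value was 30.8 times the lowest, and both lay outside the trogocytic range. Cldn3 (ENSMUSG00000070473.4, chr5:134986214-134987472), its neighbour on chromosome 5, measured 16.0, 175, 34.0 and 70.8 TPM in the controls and 31.5, 44.4, 47.6 and 60.8 TPM. Again non-trogocytic replicate 1 was lowest and replicate 2 highest of all 8 libraries. Cldn7 (ENSMUSG00000018569.12, chr11:69964779-69967885), the claudin partner of EpCAM, stood at 64.1, 285, 108 and 167 TPM in the controls and at 59.5, 127, 92.9 and 143 TPM. Here non-trogocytic replicate 2 was again highest, and trogocytic replicate 1 was lowest. The log2 fold changes were −0.38 for Cldn4 (95% interval −2.31 to 1.55), −0.19 for Cldn3 (−1.52 to 1.14) and −0.43 for Cldn7 (−1.39 to 0.53), with a limma adjusted p of 0.9998 for each. Without non-trogocytic replicate 2 they were 0.47, 0.39 and −0.07, so the sign for Cldn4 and Cldn3 turned with 1 library.

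Cldn2 (ENSMUSG00000047230.6, chrX:139800828-139811386), the pore-forming claudin, stood at 5.67, 57.4, 30.6 and 64.4 TPM in non-trogocytic and at 22.5, 29.4, 22.0 and 16.0 TPM in trogocytic libraries. Of the 4 control values, 3 lay above every trogocytic value and the remaining one, replicate 1, lay below them all. The log2 fold change was −0.38 (95% interval −1.80 to 1.03, limma adjusted p = 0.9998), and it was −1.11 with control replicate 1 left out and −0.01 with control replicate 4 left out.

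The other membrane proteins of the tight junction, occludin and JAM-A, had the most negative fold changes of the 10, neither past the test. Ocln (ENSMUSG00000021638.12, chr13:100496507-100552718) stood at 20.4, 75.1, 28.7 and 39.2 TPM in non-trogocytic and at 7.35, 26.8, 29.4 and 42.3 TPM in trogocytic libraries. Trogocytic replicate 1 was the lowest by far, and the other 3 trogocytic values lay among the controls. For Ocln the log2 fold change was −0.67 (95% interval −1.87 to 0.54), and it was −0.17 without trogocytic replicate 1 and −0.32 without non-trogocytic replicate 2. F11r (ENSMUSG00000038235.4, chr1:171437535-171464603), which encodes JAM-A and is also made by leukocytes and platelets, stood at 8.42, 57.7, 33.2 and 22.0 TPM in the controls and at 7.69, 19.4, 12.7 and 21.8 TPM. In 3 of 4 control libraries F11r was above every trogocytic value. Its log2 fold change was −0.74 (95% interval −1.97 to 0.49), and without non-trogocytic replicate 2 it was −0.35. Without trogocytic replicate 1 it was −0.47. The limma adjusted p was 0.9998 for Ocln and for F11r. The scaffold gene Tjp1 (ENSMUSG00000030516.14, chr7:65296165-65527781), which encodes ZO-1 and is not limited to epithelium, stood at 6.47, 8.84, 8.99 and 5.78 TPM in the controls and at 4.84, 13.4, 8.54 and 8.96 TPM. The groups overlapped, with trogocytic replicate 1 below and trogocytic replicate 2 above every control. For Tjp1 the log2 fold change was 0.17 (95% interval −0.77 to 1.12, limma adjusted p = 0.9998), and −0.03 without trogocytic replicate 2.

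The plaque genes were low in every library, and their groups overlapped. Jup (ENSMUSG00000001552.14, chr11:100368958-100397763), which encodes plakoglobin of desmosomes and adherens junctions, stood at 6.47, 15.7, 5.78 and 9.50 TPM in non-trogocytic and at 8.99, 10.7, 11.4 and 10.5 TPM in trogocytic libraries. All 4 trogocytic values fell inside the control range. Dsp (ENSMUSG00000054889.10, chr13:38151294-38198577), which encodes desmoplakin, the link from desmosomes to keratin filaments, stood at 4.25, 11.1, 4.35 and 7.58 TPM in the controls and at 9.005, 5.64, 5.46 and 14.4 TPM. Its highest value was in trogocytic replicate 4. The log2 fold changes were 0.23 for Jup (95% interval −0.69 to 1.14) and 0.29 for Dsp (−0.77 to 1.36), with a limma adjusted p of 0.9998 for each. With 1 library left out, the change of Jup ran from 0.05 (without control replicate 3) to 0.49 (without control replicate 2), and that of Dsp from 0.04 (without trogocytic replicate 4) to 0.53 (without control replicate 2). The deposited mean read depth over the gene models was 2.27 to 5.37 for Jup and 2.51 to 7.88 for Dsp, against 186 to 338 for Epcam. Depth is per base, and the number of reads also depends on transcript length (3205 bases for Jup, 9592 for Dsp and 2040 for Epcam).

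Over all 11433 tested genes, limma called 0.0525% (6 genes) at an adjusted p below 0.05, and of the 10 members it called 0. An unadjusted p below 0.05 was found for 525 of all tested genes and for 0 of 10 members. In 0 of 10 members did the groups not overlap, against 2.68% of all tested genes. The fold change was below 0 in 7 of 10 members, against 49.3% of all tested genes, and the members' median was −0.29 against 0.01. These intervals do not show that the groups were alike: for Cldn4 the interval reaches from 0.201-fold to 2.93-fold.

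The study's cancer cells made up an unknown share of each mixture, so the members were also set against Krt18 (chr15:102028216-102032026), a keratin of simple epithelia. Krt18 stood at 1711, 4617, 2573 and 3451 TPM in non-trogocytic and at 2931, 3750, 3130 and 3620 TPM in trogocytic libraries, a log2 fold change of 0.21 (95% interval −0.37 to 0.78, limma adjusted p = 0.9998). Dividing by Krt18 moved the median of all tested genes to −0.20, and 69.3% of them then had a fold change below 0. On this scale limma called 0% of 11432 genes (492 at an unadjusted p below 0.05) and 0 of 10 members, none of which had an unadjusted p below 0.05. The groups did not overlap in 0 members, against 2.44% of all genes. The fold change was below 0 in 8 of 10 members, with a median of −0.49 against −0.20 for all genes.

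Per 1000 TPM of Krt18, F11r stood at 4.92, 12.5, 12.9 and 6.38 in non-trogocytic and at 2.62, 5.18, 4.07 and 6.01 in trogocytic libraries. Only non-trogocytic replicate 1 fell among the trogocytic values. The log2 fold change of F11r relative to Krt18 was −0.95 (95% interval −1.94 to 0.04, limma adjusted p = 0.9995). Less the shift of all genes it was −0.75, which by construction nearly restores the level change of −0.74. Its highest ratio was in the library with hepatocyte transcripts, without which the fold change was −0.76. Ocln stood at 11.9, 16.3, 11.1 and 11.3 per 1000 TPM of Krt18 and at 2.51, 7.15, 9.39 and 11.7. Its 3 lowest trogocytic values lay below every control, and trogocytic replicate 4 lay among them. For Ocln the log2 fold change relative to Krt18 was −0.87 (95% interval −1.87 to 0.12, limma adjusted p = 0.9995), and it was −0.44 without trogocytic replicate 1.

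Cldn7 stood at 37.5, 61.8, 42.1 and 48.3 per 1000 TPM of Krt18 in non-trogocytic and at 20.3, 33.7, 29.7 and 39.5 in trogocytic libraries. Again only trogocytic replicate 4 reached into the control range. The log2 fold change of Cldn7 relative to Krt18 was −0.63 (95% interval −1.30 to 0.03, limma adjusted p = 0.9995). Less the shift of all genes it was −0.43, which by construction nearly restores the level change of −0.43. Its unadjusted p was 0.0611, that of F11r 0.0579 and that of Ocln 0.0803. These 3 genes thus came nearest to a difference, none past the threshold.

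For the other claudins the ratio to Krt18 spread more. Cldn3 stood at 9.33, 37.8, 13.2 and 20.5 per 1000 TPM of Krt18 and at 10.8, 11.8, 15.2 and 16.8 (log2 fold change −0.40, 95% interval −1.31 to 0.52), and the fold change was −0.04 without control replicate 2 and −0.69 without control replicate 1. Cldn4 stood at 3.37, 38.45, 6.71 and 11.02 and at 8.35, 4.1999, 3.54 and 15.8 (−0.59, −2.03 to 0.86), and the sign was positive, 0.04, without non-trogocytic replicate 2. Cldn2 stood at 3.31, 12.4, 11.9 and 18.7 and at 7.68, 7.83, 7.02 and 4.42 (−0.59, −1.66 to 0.48), with −1.06 when control replicate 1 was left out and −0.30 when control replicate 4 was. For Cldn2, as for its level, non-trogocytic replicate 1 was lowest and the other 3 controls were above every trogocytic library.

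Epcam stood at 146, 81.9, 139 and 144 per 1000 TPM of Krt18 in non-trogocytic and at 109, 95.03, 124 and 90.2 in trogocytic libraries. Non-trogocytic replicate 2, the library with the highest Cldn3, Cldn4 and Cldn7, had the lowest Epcam ratio of all 8. The log2 fold change was −0.26 (95% interval −0.88 to 0.36), and without that library it was −0.46. Jup (2.25 to 3.78 and 2.85 to 3.63), Tjp1 (1.67 to 3.78 and 1.65 to 3.59) and Dsp (1.69 to 2.48 and 1.504 to 3.96) had overlapping ratios, with log2 fold changes of 0.02, −0.04 and 0.09. The sign turned without some libraries: for Jup without non-trogocytic replicate 3 (−0.10) or 4 (−0.03) or trogocytic replicate 3 (−0.05), for Tjp1 without non-trogocytic replicate 1 (0.16) or 3 (0.10) or trogocytic replicate 1 (0.13), and for Dsp without non-trogocytic replicate 3 (−0.01) or trogocytic replicate 1 (−0.03) or 4 (−0.13).

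**Figure D2:**
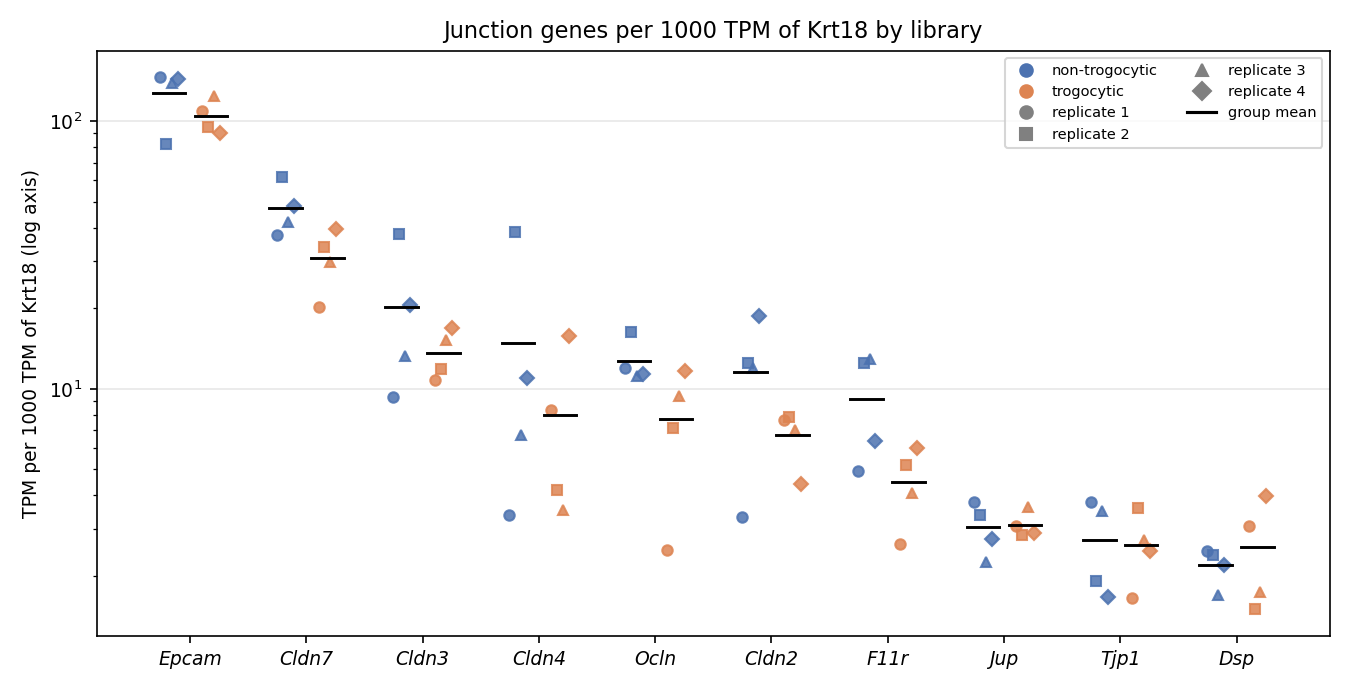
TPM of each member per 1000 TPM of Krt18 (y axis, log scale) by library, with colours, shapes and mean lines for 4 non-trogocytic and 4 trogocytic libraries as in the plot of levels. For Cldn7, trogocytic replicate 4 (39.5) is the 1 trogocytic point above the lowest control (37.5), and for Epcam non-trogocytic replicate 2 (81.9) lies below the other controls.

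**Figure D3:**
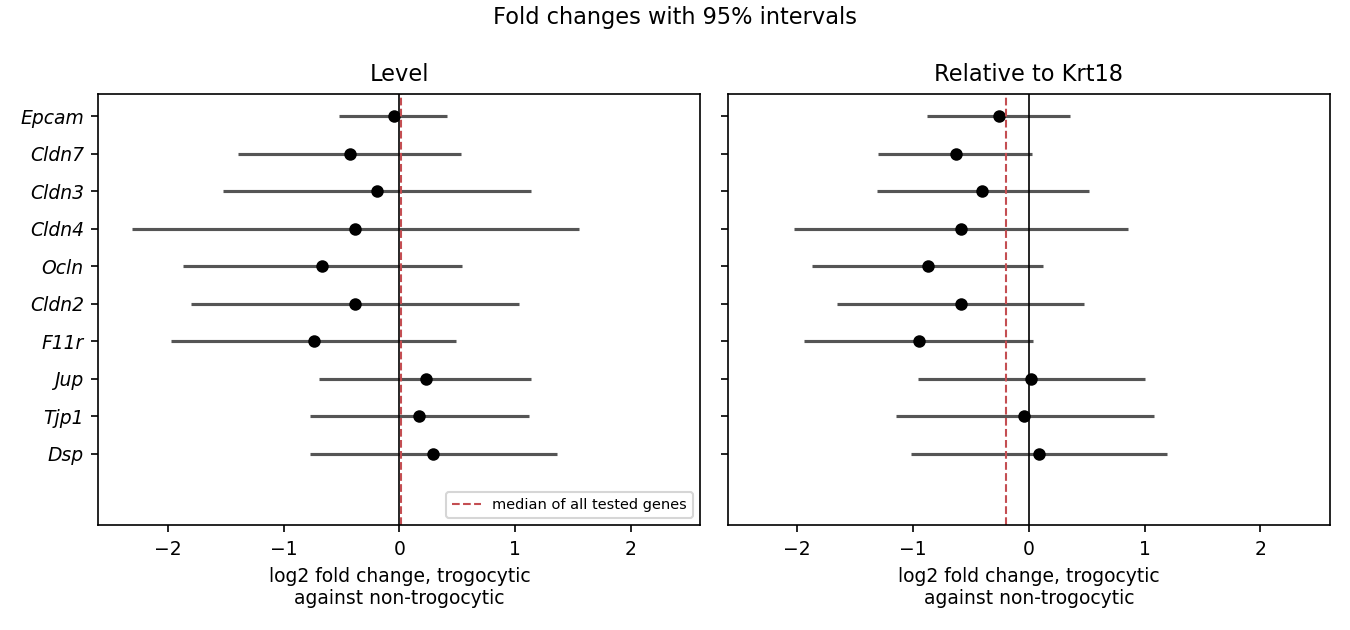
Log2 fold change of each member, trogocytic against non-trogocytic, with limma's 95% interval, for the level on the left and relative to Krt18 on the right; the dashed line is the median of all tested genes (0.01 and −0.20). All 20 intervals include 0.

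The spread within groups was widest for the claudins, Ocln and F11r. The SD of log2(TPM + 1) within groups was 1.57 for Cldn4, 1.10 for Cldn2, 1.05 for Cldn3, 0.92 for Ocln, 0.90 for F11r and 0.75 for Cldn7, and 0.30 for Epcam. Among the 2369 tested genes whose mean TPM was within 2-fold of that of Cldn4, 98.3% had a smaller SD. The same share was 93.7% for Cldn3, 89.9% for Cldn7, 88.6% for Cldn2, 83.4% for Ocln and 74.9% for F11r. It was 55.7% for Epcam, 24.3% for Dsp, 12.7% for Jup and 12.1% for Tjp1. The SD pools both groups. For Cldn4 the highest TPM was 30.8 times the lowest in non-trogocytic and 5.16 times in trogocytic libraries. These ratios were 10.9 and 1.93 for Cldn3 and 11.4 and 1.83 for Cldn2, but 3.68 and 5.76 for Ocln. Relative to Krt18 the SD was smaller for 8 of 10 members, the exceptions being Epcam (0.32) and Tjp1 (0.50 against 0.43). It was 0.36 for Cldn7, 0.63 for Cldn3 and 1.19 for Cldn4. Krt18 is itself a transcript of high GC content (56.4%), a group whose level differed between libraries, as given below.

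Most members were high and low in the same libraries. Over the 8 libraries, which also share their depth and mixture, 44 of 45 pairs of members had a Pearson's r above 0 on log2(TPM + 1) and 14 had r above 0.7, with a median of 0.60. Without non-trogocytic replicate 2 the median was 0.49, and 10 pairs had r above 0.7. These correlations are descriptions with no test. The same counts were not made for pairs of all tested genes. Cldn3 and Cldn7 had r = 0.92 (Spearman's rho 0.90), and r was 0.83 without the 2 libraries farthest from the median of Cldn3. Cldn3 and Cldn4, the neighbours on chromosome 5, had r = 0.91 (rho 0.74), which went to 0.55 without the 2 farthest libraries. Cldn7 and Ocln had r = 0.90 (rho 0.88, 0.88 without the 2 farthest). Epcam was most like Cldn2 (r = 0.89, rho 0.71, 0.55 without the 2 farthest), and for Tjp1 the highest r with another member was 0.49. With Krt18, r ran from 0.39 for Tjp1 to 0.91 for Cldn3. With Ptprc, which encodes the leukocyte antigen CD45, every member had r below 0, from −0.31 for Dsp and Tjp1 to −0.91 for Cldn2. TPM sums to the same total in every library, and the part of the leukocyte share in the members' values was not tested.

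**Figure D4:**
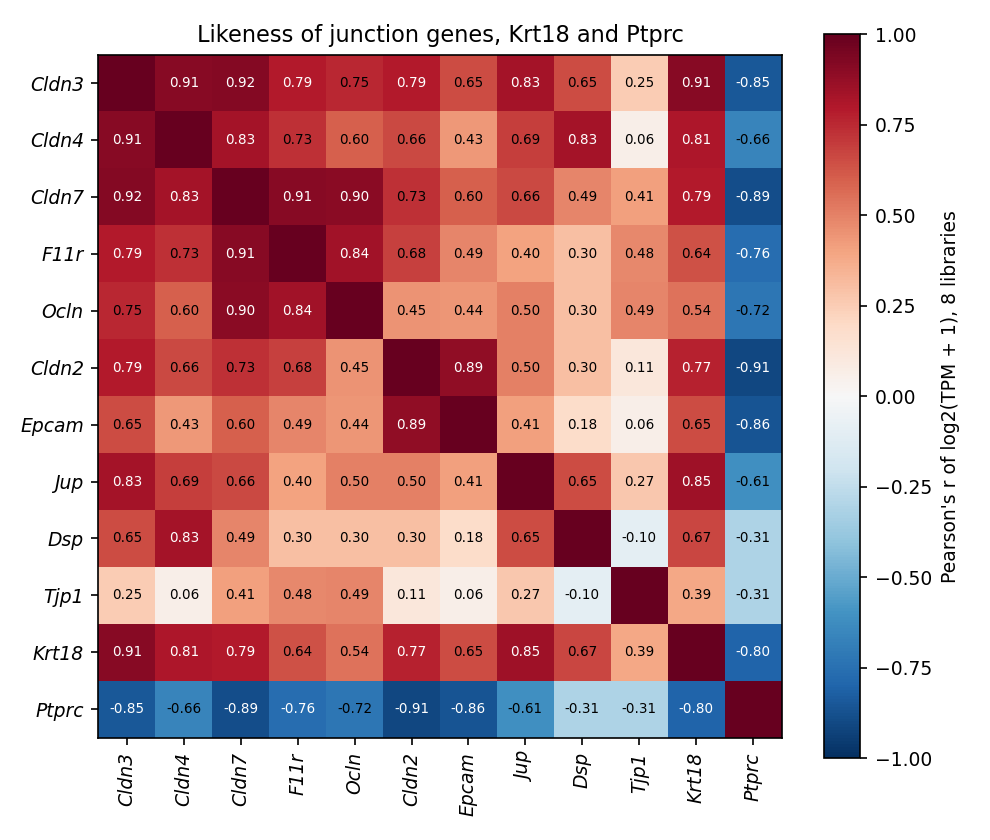
Pearson's r of log2(TPM + 1) over 8 libraries for each pair of the 10 members, Krt18 and Ptprc, coloured from −1 (blue) to 1 (red). The order of the genes was set by hand. Cldn3, Cldn4 and Cldn7 have r from 0.83 to 0.92, and values as high lie outside them, with 0.91 for Cldn7 and F11r. Ptprc has r below 0 with every member and with Krt18.

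Averaged over the members, the centred log2 level was lowest in non-trogocytic replicate 1 (−0.98) and trogocytic replicate 1 (−0.53) and highest in non-trogocytic replicate 2 (1.14). Ptprc stood at 345 and 253 TPM in the first 2 of these libraries and at 60.1 TPM in the last. Of 6045 genes with a mean of at least 10 TPM, those most like this average were Phb2 (r = 0.989), which encodes the mitochondrial protein prohibitin 2, Cdc20 (0.982), an activator of the anaphase-promoting complex, Slc6a20b (0.982), Gpx2 (0.977), a glutathione peroxidase of gut epithelium, and Gm10143 (0.976). Like the average, each of these genes was highest in non-trogocytic replicate 2, and r without that library was not computed for them. The GC content of their transcripts was 56.8, 55.6, 43.0, 53.8 and 50.0%, in the same order. Krt18 ranked 151 with r = 0.884 and Krt8 ranked 534 with r = 0.772. Ptprc was near the other end, at rank 6014, with r = −0.878.

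The library with the highest Cldn3, Cldn4 and Cldn7 also stood apart by the GC content of its transcripts. In non-trogocytic replicate 2, the 10% of tested genes with the highest GC content stood on average 0.61 above their 8-library mean on the log2 scale, and the 10% with the lowest stood at −0.15. In non-trogocytic replicate 1 the same groups stood at −0.26 and 0.12, and in trogocytic replicate 4 at 0.18 and −0.01. Cldn3 (62.7% GC), Jup (58.8%), Cldn7 (57.0%) and Cldn4 (56.8%) are in the highest group, whereas Ocln (41.96%), which was also highest in non-trogocytic replicate 2, has a GC content that only 13.4% of tested genes lie below. With a GC curve removed from each library, the SD within groups went from 1.05 to 0.79 for Cldn3, from 1.57 to 1.31 for Cldn4, from 0.75 to 0.58 for Cldn7 and from 0.42 to 0.26 for Jup, and from 0.92 to 0.93 for Ocln. The median r between members then went from 0.60 to 0.32, and the pairs with r above 0.7 went from 14 to 8. Cldn3 and Cldn7 were at 0.86 and Cldn7 and Ocln at 0.93. By contrast, Epcam and Cldn2 went from 0.89 to 0.55, and Cldn3 and Jup from 0.83 to 0.44. The fold changes of Cldn7 and F11r relative to Krt18 were −0.64 and −1.02 after this adjustment, which was chosen after the data had been seen, and neither passed (limma adjusted p = 0.7161 for each). With the adjustment and without non-trogocytic replicates 2 and 3 they were −0.52 and −0.41.

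**Figure D5:**
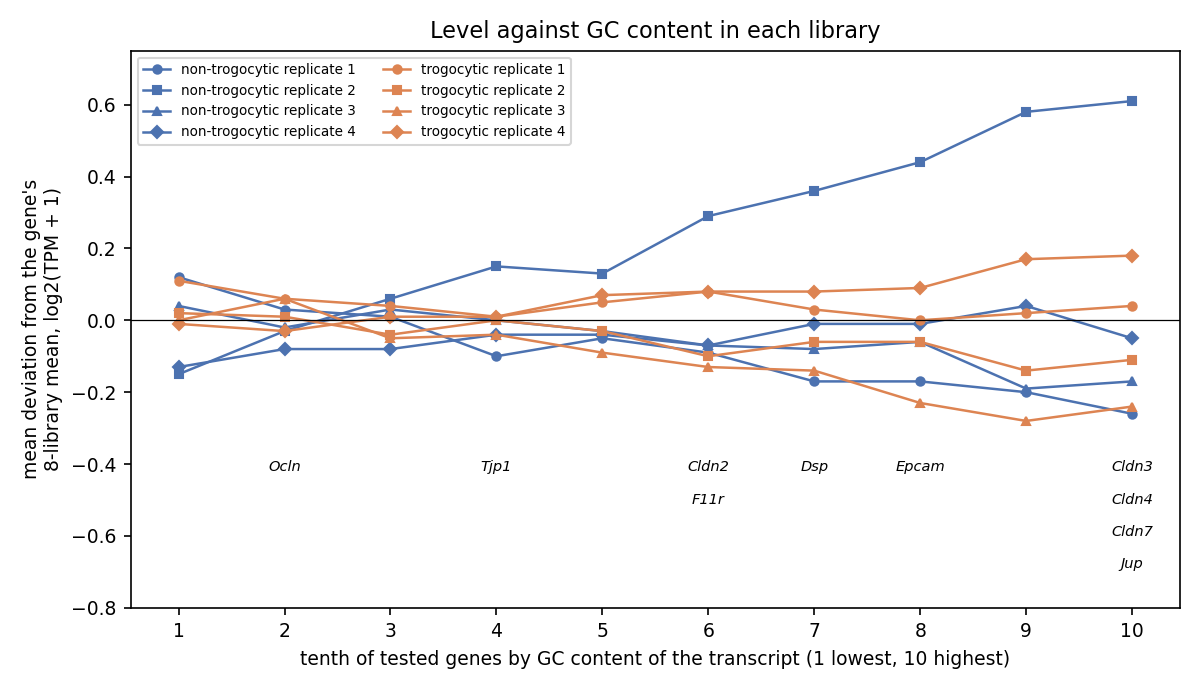
Mean deviation of log2(TPM + 1) from each gene's 8-library mean (y axis) in 10 equal groups of tested genes by transcript GC content (x axis), 1 line per library, with the members named under their group. Non-trogocytic replicate 2 climbs from −0.15 to 0.61, and the other libraries stay between −0.28 and 0.18.

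Other genes of the junctions did not pass the test either: limma called 0 members of any of the 11 other lists on both scales. Of 25 other claudin symbols in the files, 11 were listed at 0 in all 8 libraries and 5 were tested: Cldn8, Cldn10, Cldn12, Cldn18 and the claudin domain gene Cldnd1. Cldn8, a sealing claudin of the distal gut and kidney, stood at 11.4 ± 5.58 and 6.25 ± 5.51 TPM (SD, n = 4 each), and Cldn12 at 9.44 ± 5.65 and 11.5 ± 5.27 TPM. Cldn5, the endothelial claudin, was among those at 0. Of 7 tested tight junction membrane genes outside the claudins, 6 had a fold change below 0 (median −0.14), among them Crb3, which encodes a polarity protein, at 99.5 ± 24.3 and 82.7 ± 23.3 TPM. Of 12 scaffold genes 4 were below 0 (median 0.24). There, Magi3 stood at 9.61 ± 4.18 and 15.5 ± 2.86 TPM and the polarity gene Pard6b at 2.03 ± 1.55 and 5.06 ± 2.43 TPM.

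Of 11 tested adherens junction genes 7 had a fold change below 0 (median −0.06), and Ctnna1, which encodes alpha-catenin, stood at 357 ± 98.3 and 350.3 ± 8.70 TPM. Of 8 desmosome genes 4 were below 0 (median −0.01), with Perp, a desmosome-associated p53 target, at 87.9 ± 40.1 and 87.5 ± 4.07 TPM and the desmosomal cadherin gene Dsg2 at 36.4 ± 10.8 and 36.8 ± 17.1 TPM. Hemidesmosome genes were mostly above 0 (6 of 7, median 0.26) and gap junction genes divided 3 above and 2 below (median 0.09). These level counts stand beside the 49.3% of all genes below 0. Relative to Krt18, where 69.3% of all genes were below 0, the counts below 0 were 7 of 7 for tight junction membrane genes, 6 of 12 for scaffolds, 10 of 11 for adherens junctions, 6 of 8 for desmosomes, 4 of 5 for gap junctions, 2 of 7 for hemidesmosomes, 3 of 5 for other claudins, 7 of 9 for partners and proteases of EpCAM and 8 of 10 for epithelial factors. The counts were not set against chance, and no list was tested as a set.

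Among 9 tested partners and proteases of EpCAM, 6 had a fold change below 0 (median −0.16). Cd9, a tetraspanin that associates with EpCAM and claudins, stood at 2012 to 2185 TPM in the controls and at 1829 to 1977 TPM in trogocytic libraries. Of the 82 tested genes in the lists outside the members, it was the 1 whose groups did not overlap in level, against 2.68% of all tested genes. Cd9 differed by −0.16 ± 0.11 on the log2 scale (SE, limma adjusted p = 0.9998). St14, which encodes matriptase, a protease that cleaves EpCAM, stood at 2.08 ± 2.03 and 5.96 ± 3.74 TPM.

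Of 10 tested epithelial transcription and splicing factors, 7 had a fold change below 0 (median −0.08). Elf3 stood at 10.01 ± 5.71 and 3.91 ± 2.78 TPM, Grhl1 at 2.83 ± 2.11 and 0.659 ± 0.486 TPM, and the intestinal factor Ehf at 142 ± 55.9 and 128 ± 50.4 TPM. Among the repressors of epithelial junction genes only Zeb1 and Zeb2 were tested, and Snai1, Snai2, Snai3, Twist1 and Twist2 did not reach the filter. Zeb1 stood at 17.7, 3.06, 3.78 and 0.0220 TPM in non-trogocytic and at 35.0, 22.5, 6.05 and 19.7 TPM in trogocytic libraries, which differed by 2.09 ± 0.83 on the log2 scale (SE; unadjusted p = 0.0292, limma adjusted p = 0.9998). The lowest trogocytic value and the highest control value overlapped. Of 82 tested genes in the lists outside the members, Zeb1 was the 1 with an unadjusted limma p below 0.05 in level. Of all 11433 tested genes, 525 had one. Relative to Krt18 its log2 fold change was 1.89, and 0 of the 2 tested repressors had an unadjusted limma p below 0.05. T cells also make Zeb1, and the T cell gene Cd3e stood at 1.47 to 51.9 and 8.71 to 42.65 TPM, so the cell source of Zeb1 was not tested. Zeb2 stood at 5.68 ± 2.81 and 2.98 ± 2.70 TPM. Of 6 keratins of simple epithelium, Krt18 among them, 1 had a fold change below 0 (median 0.08), and relative to Krt18 4 of the other 5 did (median −0.18). Krt8, the partner of Krt18 in filaments, stood at 864 ± 602 and 915 ± 247 TPM.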

How the data were processed

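Polyadenylated RNA of 8 co-cultures was sequenced as paired-end reads of 100 bp, per the labels' protocols. Builds GRCm38 and mm10 and the tools StringTie 1.3.3, HISAT2 and DESeq version 2 are listed in the submitters' processing notes. Neither annotation release nor strand setting is given in the sources used here. Per the file headers, the authors deposited for each gene a coverage (mean read depth), an FPKM and a TPM. Coverage divided by FPKM, over genes with 1 annotated transcript, gave the aligned bases per library.

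TPM was summed per gene ID. Genes with at least 1 TPM in 4 or more libraries entered a two-sided limma test of log2(TPM + 1) (limma 3.58.1, R 4.3.3; trend of variance on mean), and p-values were adjusted over all of them by Benjamini-Hochberg. The scale understates changes of low genes. The second fit subtracted log2(Krt18 TPM + 1) of the same library. The fit was checked on simulated data. The members, lists, tests and alternatives were chosen with earlier results of these data known. Named are all members and, of each list, the 2 tested genes with the smallest p and the 2 most abundant, of which a part is printed; Cldn5, Cldn10, Cldn18, Cd3e and the marker genes are named from their lists. GC content is that of the longest coding transcript in GENCODE M21, matched by gene ID without version for 99.9% of tested genes. Of the genes overlapping a member, none reached 0.5 TPM. Alternatives covered the unit (FPKM), pseudocount, filter, scaling, trend, replicate block, reference keratin, GC content and samples. Protein sequences were not used here. One gene of the lists is not reported here.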

Additional observations from a re-analysis of the deposited data

Results flagged for a closer look

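In 2 of 40 groups of 4 values examined, 1 library lay far from the other 3 (the gap to its neighbour was past Dixon's 95% critical share of the group's range). Chance gives about 1 in 20. Per 1000 TPM of Krt18, Epcam was lowest in non-trogocytic replicate 2 at 81.9, with the next value at 139. In the same library Ocln was highest at 16.3, with the next value at 11.9.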

How the results depend on the processing

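Each member was refitted under every alternative. In 190 alternative values for the level and 210 relative to Krt18, 0 passed the threshold (lowest limma adjusted p 0.722 and 0.654), and 8 and 17 turned sign. For the level, limma called 6 genes, and 3 with FPKM, 1 without the low filter, 1 without the trend, 0 to 3 with 1 library left out, 0 without replicate 1 of both groups, and 0 with GC adjustment without non-trogocytic replicates 2 and 3. Relative to Krt18 it called 0 genes, and 1 without the trend. With a replicate block limma called 0 genes for the level and 1 relative to Krt18, also with median-of-ratios scaling. Deviations of same-numbered libraries had correlations of 0.24, 0.01, 0.06 and −0.09 for replicates 1 to 4. Non-trogocytic replicates 1 and 3 were most like the trogocytic library of their own number. Non-trogocytic replicates 2 and 4 were most like trogocytic replicates 4 and 3. Whether the numbers mark pairs is not settled by these values. Signs turned with 1 library left out for Cldn3 (−0.73 to 0.39), Cldn4 (−1.10 to 0.47), Epcam (−0.23 to 0.10) and Tjp1 (−0.032 to 0.40) in level, and for Cldn4 (−1.06 to 0.038), Dsp (−0.13 to 0.29), Jup (−0.10 to 0.15) and Tjp1 (−0.22 to 0.16) relative to Krt18. With GC adjustment Epcam had a level change of 0.010. With it and without non-trogocytic replicates 2 and 3, the level changes were 0.069 for Cldn2, 0.26 for Cldn3 and 0.45 for Cldn4, and those relative to Krt18 were 0.060 for Cldn4, −0.034 for Dsp and −0.13 for Jup. Relative to Krt18, Jup had −0.0011 with FPKM, and −0.049 with Krt8 as reference, and Tjp1 had 0.33 without replicate 1 of both groups and 0.037 with the mean of 5 keratins as reference. The cause was not tested.

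Coverage limits the low members: mean read depth fell to 1.66 for Cldn2 and 2.27 for Jup. With 4 libraries a group, intervals for most members include changes of over 2-fold. The GC alternatives were chosen after seeing the data.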
